A study of Mus musculus with 18 samples.

Results

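AT2-derived tumoroids were compared with mixed BASC-derived tumoroids, which asks whether the distal lung cell of origin leaves a mark on the transcriptome of EGFR-driven tumors after transplantation. Members were taken by the tissue origin in the sample labels: 3 tumoroids of AT2 origin and 3 of mixed BASC origin, 6 of the 18 samples in all and 6 of the 8 tumoroids. In both groups, sorted mouse lung epithelial cells that carried a mutant human EGFR transgene behind a lox-stop-lox cassette in the Col1a1 locus were infected with Ad-Cre, an adenovirus that delivers Cre recombinase and so switches the transgene on. The transformed organoids were injected into the trachea of immunodeficient nude mice, and the tumors were propagated as tumoroids in Matrigel with lung mesenchymal support cells. The mixed BASC group came from Sca1-positive cells whose cultures held both alveolar and bronchiolar organoids. The labels give the AT2 group a sorting type of NGFR negative, whereas the AT2 organoids of the same study are labelled Sca1 negative; the samples were therefore placed by their origin. All 6 libraries were prepared and sequenced on one platform (BGI, DNBSEQ), and the labels give no age for the animals. AT2 tumoroids 2 and 3 share a number in their titles, as do mixed BASC tumoroids 2 and 3, and the labels do not say whether such a pair came from the same mouse. P-values therefore measure the spread between these samples, which may in part be technical. Bulk RNA cannot tell fewer cells of a type from less RNA per cell.

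Alveolar type 2 (AT2) cells make and recycle surfactant, and they renew the alveolar epithelium by self-renewal and by differentiation into flat alveolar type 1 (AT1) cells. Their secretory product is marked by Sftpc, which encodes surfactant protein C. Bronchioalveolar stem cells (BASCs) sit where the terminal bronchiole meets the alveolus, co-express Sftpc and the club cell secretoglobin Scgb1a1, and can give rise to bronchiolar as well as alveolar cells.

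Total expected counts were 15327220 in AT2 tumoroid 3 and between 21752209 and 23000637 in the other samples. AT2 tumoroid 3 stood apart from the rest: it held the lowest level of 19 of the 20 general epithelial genes tested and the highest level of 22 of the 26 fibroblast genes. Levels are given as CPM, the counts divided by library totals that were scaled by TMM factors and set to a common size, and fold changes are log2 ratios of AT2 over mixed BASC with their standard error (SE).

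Neither origin gave a cluster of its own. Over the log2 CPM of 15470 genes, the nearest sample of each of the 6 tumoroids belonged to the other origin. AT2 tumoroid 1 was nearest to mixed BASC tumoroid 1 (Pearson's r = 0.957 across genes), AT2 tumoroid 2 to mixed BASC tumoroid 3 (r = 0.965) and AT2 tumoroid 3 to mixed BASC tumoroid 2 (r = 0.944). Genes are not independent replicates, and these r values are a description of whole cultures with support cells. In fibroblast sums, given further on, AT2 tumoroid 3 and mixed BASC tumoroid 2 were each the highest of their origin. AT2 tumoroid 2 and mixed BASC tumoroid 3 were each the lowest. The part of stromal content in these pairings was not tested. Within the AT2 group r ranged from 0.828 to 0.943, and within the mixed BASC group from 0.921 to 0.940. The pair of AT2 tumoroids with a shared title number had the lowest r of the 15 pairs. The same 3 cross-origin pairs were nearest over the 1000 most variable genes, over protein-coding genes and over log2(TPM + 1), where TPM is the length-scaled share of transcripts in the deposited tables.

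**Figure D1:**
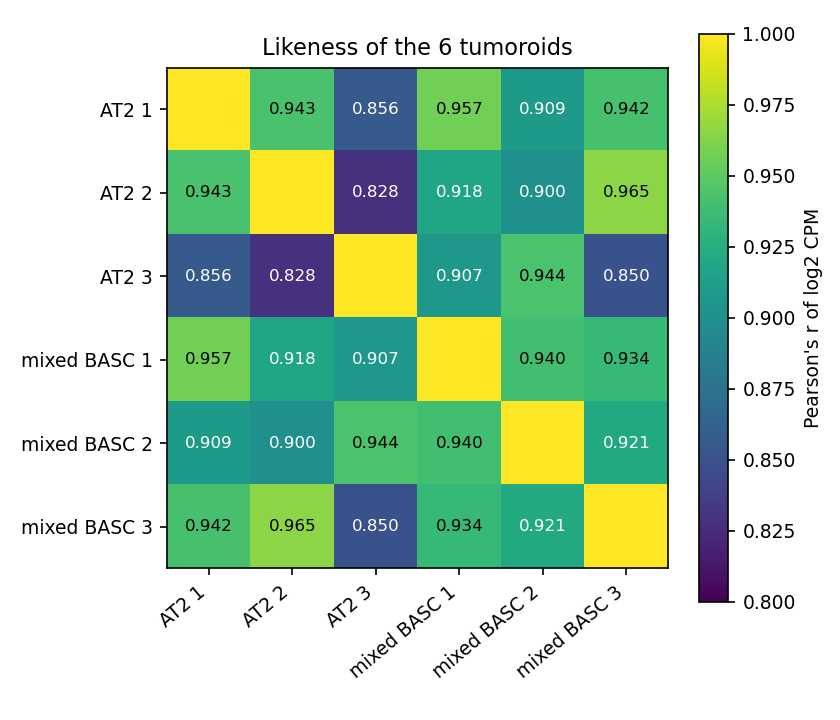
Pearson's r of log2 CPM over 15470 genes for each pair of the 6 tumoroids, with samples on both axes and the colour scale running from 0.8 to 1. Off the diagonal, the highest r of each row lies in a column of the other origin, and the lowest value is 0.828, between AT2 tumoroids 2 and 3.

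No single gene passed the edgeR quasi-likelihood test between the origins: 0 of 15470 genes (0%) had a Benjamini-Hochberg adjusted p below 0.05. Of these genes, 144 had an unadjusted p below 0.05, 51 with higher levels in AT2 and 93 with higher levels in mixed BASC tumoroids. That is fewer than the 0.05 share of all genes tested that would be expected if no gene differed. The Wald test of DESeq2 called 7 genes, all higher in mixed BASC. The median absolute log2 fold change between the origins was 0.19. The median range was 0.95 among the 3 AT2 tumoroids and 0.68 among the 3 mixed BASC tumoroids. Without AT2 tumoroid 3 the first of these ranges was 0.42, over fewer samples. A range of single samples tends to exceed a difference of group means, so these values were not weighed against each other. A range above 2 on the log2 scale was found for 3389 genes within the AT2 group and for 1815 genes within the mixed BASC group. With the log2 fibroblast level as a covariate, edgeR again called 0 genes, and 565 had an unadjusted p below 0.05.

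For 6447 genes (41.7%) the 95% interval of the log2 fold change lay between -1 and 1, so that a difference of 2-fold or more lay outside the interval. The share was highest, of the lists examined, for cell cycle genes. Of the 34 S phase genes tested, 27 had such an interval, with a median log2 fold change of 0.15 in favour of AT2. Of the 34 G2 and M phase genes, 20 did, with a median of 0.14. Higher levels in AT2 were found for 31 S phase and 30 G2 and M phase genes, where 56.4% of all genes tested were higher in AT2. AT2 tumoroid 3 held the highest level of 18 S phase and 20 G2 and M phase genes. Mki67, the proliferation antigen, was at 167, 168 and 195 CPM in the AT2 tumoroids and at 120, 192 and 162 CPM in the mixed BASC tumoroids. Mcm7, a subunit of the replicative helicase, was at 112, 128 and 131 CPM against 113, 110 and 110 CPM. These groups overlapped for both genes. Bub1, a spindle checkpoint kinase, was the one member whose groups did not overlap, at 50.5, 64.9 and 46.7 CPM in AT2 and 31.6, 41.6 and 39.6 CPM in mixed BASC tumoroids (log2 fold change 0.52, SE 0.22, edgeR unadjusted p = 0.0489). Over all genes tested, 2.08% had every AT2 value above every mixed BASC value.

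Among cholesterol and lipid genes, which AT2 cells use to make surfactant lipid, 9 of 27 had an interval within 2-fold, a smaller share than the 41.7% of all genes. Of the 27, 24 were higher in AT2, with a median log2 fold change of 0.27, where 56.4% of all genes tested were higher in AT2. Scd1, a fatty acid desaturase, was at 8331, 6154 and 2075 CPM in AT2 and at 4927, 2586 and 3895 CPM in mixed BASC tumoroids. For this gene AT2 tumoroid 3 was the lowest of the 6 samples and AT2 tumoroids 1 and 2 were the highest. Over all genes tested the median log2 fold change was 0.04.

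EGFR signals through ERK, and its targets include phosphatases and Sprouty proteins that limit the pathway. None of the 14 ERBB receptors and ligands and none of the 24 ERK targets tested passed the threshold, and none had separated groups. Dusp6, an ERK phosphatase, was at 374, 376 and 81.4 CPM in AT2 and 215, 221 and 365 CPM in mixed BASC tumoroids. Mouse Egfr was at 5.94, 2.51 and 57.0 CPM against 31.4, 37.3 and 7.42 CPM. Across the 6 samples Dusp6 was lowest in CPM, and Egfr highest, in AT2 tumoroid 3. Set against epithelial counts, as described further on, 5 of the 24 ERK targets (Dusp6, Spry2, Spred1, Epha2 and Etv5) had every AT2 value above every mixed BASC value, where 1.76% of all genes did. On that scale the median log2 fold change was 0.87 for the 24 ERK targets and 0.88 for all genes. The ERK target sum was 18548 per 10000 epithelial counts in AT2 tumoroid 3 and from 5263 to 6220 in the other samples. The human transgene was not measured by the mouse annotation.

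Surfactant genes led the transcriptome of both origins. On the length-scaled TPM scale Sftpc was first in mean level in either group, at 123104, 81107 and 23662 TPM in AT2 and 53064, 21223 and 42717 TPM in mixed BASC tumoroids. Sftpb, which encodes surfactant protein B, had rank 3 in both, at 16294, 14323 and 4571 TPM against 11543, 10480 and 13110 TPM. Of the 20 genes with the highest mean TPM in each origin 17 were shared, of the top 50 genes 43, and of the top 100 genes 85.

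Sftpc (GRCm38, chr14:70520949-70524081, - strand) was used to check the alveolar label. It took 6.02%, 3.97% and 1.03% of all counts in the AT2 tumoroids and 2.24%, 0.999% and 2.01% in the mixed BASC tumoroids. In CPM it was at 64989, 41768 and 10228 in AT2, and at 21422, 9632 and 19604 in mixed BASC tumoroids. The groups overlapped, as AT2 tumoroid 3 lay below mixed BASC tumoroids 1 and 3 (log2 fold change 1.21, SE 0.77, 95% interval -0.65 to 3.07, edgeR unadjusted p = 0.166, adjusted p = 1.00). Without AT2 tumoroid 3 the log2 fold change was 1.66, and without AT2 tumoroid 1 it was 0.62. The other surfactant proteins also overlapped. Sftpa1 had a log2 fold change of 1.05 (SE 0.85), Sftpd of 0.43 (SE 0.39) and Sftpb of 0.20 (SE 0.59). Of the 23 AT2 genes tested, 18 were higher in AT2, with a median of 0.28, and 1 had separated groups, where 2.08% of all genes tested had every AT2 value above every mixed BASC value. That gene was Lyz2 (GRCm38, chr10:117277331-117282321), the lysozyme gene, which macrophages also express. It was at 1704, 559 and 1184 CPM in AT2 and 425, 454 and 193 CPM in mixed BASC tumoroids (log2 fold change 1.68, SE 0.52, edgeR unadjusted p = 0.0154, adjusted p = 1.00). Of 22 immune genes, 8 had at most 3 counts in all 6 samples, among them the macrophage genes Tyrobp and C1qa at 0. Other macrophage genes were detected: Cd68 was at 5.99, 7.93 and 10.1 CPM in AT2 and 12.1, 10.3 and 23.6 CPM in mixed BASC tumoroids, and Csf1r at most 5.05 CPM. The immune sum was 48.7 to 101 CPM in AT2 and 66.5 to 159 CPM in mixed BASC tumoroids, and its part in the Lyz2 level was not tested. Napsa, an aspartic protease that processes surfactant protein B, lay the other way, at 128, 90.3 and 115 CPM against 335, 604 and 90.8 CPM (log2 fold change -1.62, SE 0.63, and -0.93 without mixed BASC tumoroid 2).

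Scgb1a1 (GRCm38, chr19:9083636-9087958, - strand) was low in the AT2 tumoroids and reached a high level in 1 mixed BASC tumoroid. It was at 5.22, 2.85 and 0.323 CPM in AT2 and at 12.1, 747 and 17.3 CPM in mixed BASC tumoroids (log2 fold change -6.51, SE 2.04, edgeR unadjusted p = 0.0171, adjusted p = 1.00). The groups did not overlap, yet the size of the fold rested on mixed BASC tumoroid 2, without which it was -2.39. All 15 club genes tested were higher in mixed BASC, with a median log2 fold change of -1.01, and 3 had separated groups (Scgb1a1, the paraoxonase Pon1 and the glutathione transferase Gsta3), where 1.57% of all genes tested had every mixed BASC value above every AT2 value. None passed the threshold. Gsta3 was at 63.8, 99.9 and 8.4 CPM in AT2 and 127, 194 and 159 CPM in mixed BASC tumoroids, with a log2 fold change of -1.48 that was -0.97 without AT2 tumoroid 3. Bpifa1, an antimicrobial protein of airway secretions, was at 69.0, 8.56 and 10.0 CPM against 1172, 62.9 and 32.6 CPM. Its groups overlapped, and without mixed BASC tumoroid 1 its log2 fold change went from -3.85 to -0.70. Cyp2f2, a club cell cytochrome P450, was at 486, 73.3 and 61.1 CPM against 545, 477 and 162 CPM. The club genes thus peaked in different mixed BASC tumoroids: 8 of the 15 were highest in tumoroid 2, 5 in tumoroid 1 and 2 in tumoroid 3. The secretoglobins Scgb3a1 and Scgb3a2 were at most 0.503 CPM in every sample.

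The airway transcription factors Foxj1, Trp63 and Sox2 were at most 1.94 CPM in the AT2 tumoroids and reached 17.6 to 24.5 CPM in mixed BASC tumoroid 2. Foxj1, the transcription factor of ciliated cells, was at 1.06, 1.35 and 1.94 CPM in AT2 and 4.8, 17.6 and 6.21 CPM in mixed BASC tumoroids (log2 fold change -2.71, SE 0.63, edgeR unadjusted p = 0.00443). Trp63, the transcription factor of basal cells, was at 0.918, 1.16 and 1.74 CPM against 3.49, 24.5 and 6.13 CPM (log2 fold change -3.16, SE 0.83, edgeR unadjusted p = 0.00788). Neither gene's groups overlapped in CPM, and mixed BASC tumoroid 2 was the highest of the 6 for both. Without that sample the log2 fold change was -1.92 for Foxj1 and -1.91 for Trp63. Set against epithelial counts, both genes overlapped between the origins. Sox2, a proximal airway factor, was at 0.676, 1.69 and 0.0646 CPM against 0.393, 22.7 and 3.36 CPM and overlapped, with mixed BASC tumoroid 1 below AT2 tumoroids 1 and 2. Other members of the ciliated and basal lists differed widely in level. The basal keratin Krt5 was at most 0.377 CPM, and the ciliary genes Ccdc153, Sntn and Deup1 were at 0 in all 6 samples. In contrast, Tubb4b, a tubulin of cilia and of other microtubules, was between 147 and 342 CPM, and Dst, a cytoskeletal linker, between 20.5 and 186 CPM. Of the 6 ciliated genes tested, 3 were higher in each origin, and of the 6 basal genes tested, 5 were higher in mixed BASC. Nkx2-1, the lung epithelial lineage factor, was at 302, 450 and 81.0 CPM in AT2 and 243, 220 and 422 CPM in mixed BASC tumoroids, with overlapping groups.

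**Figure D2:**
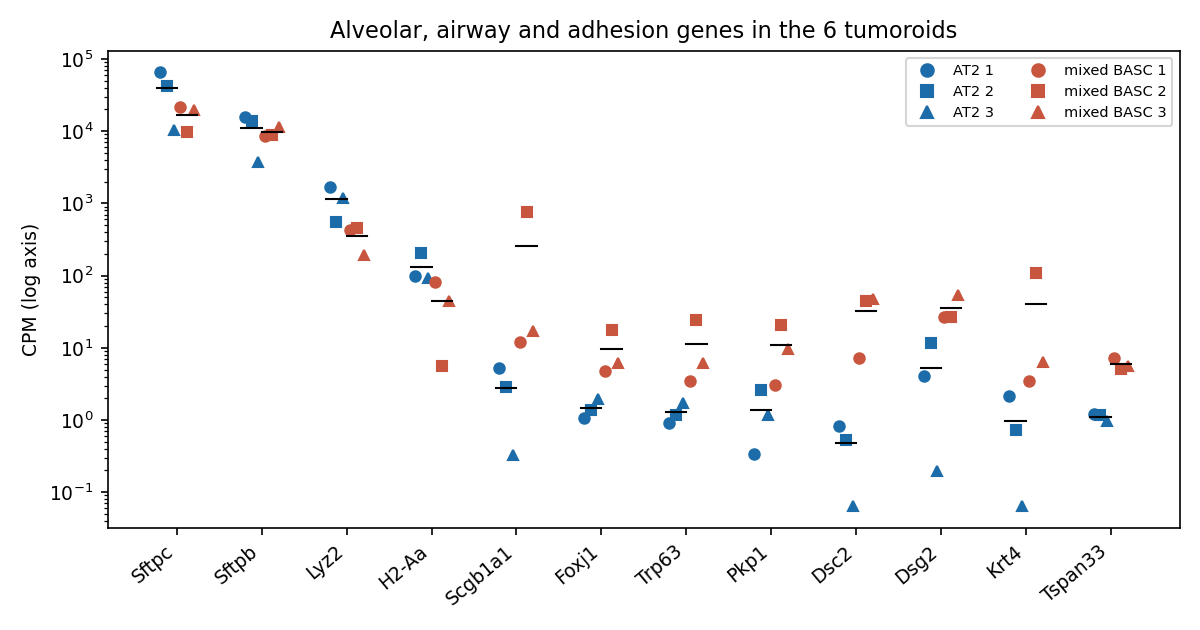
CPM on a log axis of 12 genes in the 3 AT2 (blue) and 3 mixed BASC (red) tumoroids, one point per sample, with a bar at the arithmetic mean of each group. Sftpc and Sftpb overlap between origins, whereas Scgb1a1, Foxj1, Trp63, Pkp1, Dsc2, Dsg2, Krt4 and Tspan33 lie higher in every mixed BASC tumoroid in CPM and Lyz2 and H2-Aa in every AT2 tumoroid.

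Desmosomes are adhesive junctions of epithelia, built of the cadherins desmocollin and desmoglein and of plakophilins that link them to keratin. Dsc2, desmocollin 2, was at 0.821, 0.532 and 0.0646 CPM in AT2 and at 7.15, 44.3 and 46.9 CPM in mixed BASC tumoroids. Its lowest mixed BASC value lay above the highest AT2 value, by 2.98 on the log2 CPM scale. The log2 fold change was -6.07 (SE 1.08), with an edgeR unadjusted p of 0.00109 and a DESeq2 adjusted p of 3.15e-07. Leaving out each sample in turn, it ranged from -6.69 to -5.59. Dsg2, desmoglein 2, was at 4.06, 11.6 and 0.194 CPM against 27.1, 26.7 and 53.6 CPM (log2 fold change -2.75, SE 1.14). Pkp1, plakophilin 1, was at 0.338, 2.61 and 1.16 CPM against 3.10, 20.4 and 9.71 CPM (log2 fold change -3.01, SE 0.97). Dsc2, Dsg2 and Pkp1 had separated groups, as did 1.57% of all genes tested in this direction, and none passed the threshold in edgeR. Dsc2 and Dsg2 were named for their wide gaps and Pkp1 for its fold change, so their separation says nothing about desmosomal genes as a set. No list of desmosomal genes was examined. Set against epithelial counts, Pkp1 overlapped between the origins. Krt4, a keratin of stratified mucosal epithelia named after its values were seen, was at 2.13, 0.725 and 0.0646 CPM against 3.49, 109.8 and 6.30 CPM. The paralogs Dsc3 and Dsg3 were at most 0.129 CPM in every sample. Krt7, a keratin of simple epithelia, was at 400, 344 and 60.2 CPM against 488, 740 and 674 CPM and did not overlap either (log2 fold change -1.24, and -0.77 without AT2 tumoroid 3).

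Over the whole table, 322 genes had every AT2 value above every mixed BASC value (2.08% of those tested) and 243 had the reverse (1.57%). With library totals alone in place of TMM factors the counts were 128 and 542. In both directions together, 565 genes (3.65%) were separated with TMM factors. For samples in random order a fraction of 0.1 would be expected, so these counts alone do not show a difference between the origins. A gap of more than 1 on the log2 CPM scale was found for 2 of the genes higher in AT2 and 18 of those higher in mixed BASC. Where the average log2 CPM was 3 or more, the widest gaps in favour of mixed BASC belonged to Rpl30-ps9, Dsc2, Scgb1a1, Dsg2 and Hif3a. Hif3a, a hypoxia-inducible factor subunit, was at 1.40, 5.80 and 1.49 CPM in AT2 and at 12.3, 13.5 and 13.1 CPM in mixed BASC tumoroids (log2 fold change -2.16, SE 0.63). The 5 widest gaps in favour of AT2 were smaller, from 0.29 to 0.56 for Adcy7, Tceal8, Aplp2, Lyz2 and Zdhhc20. Adcy7, an adenylyl cyclase, was at 42.4, 34.3 and 34.6 CPM in AT2 and at 17.3, 18.2 and 23.2 CPM in mixed BASC tumoroids (log2 fold change 0.92, SE 0.22). In this gene the 3 values of each origin lay close to one another.

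**Figure D3:**
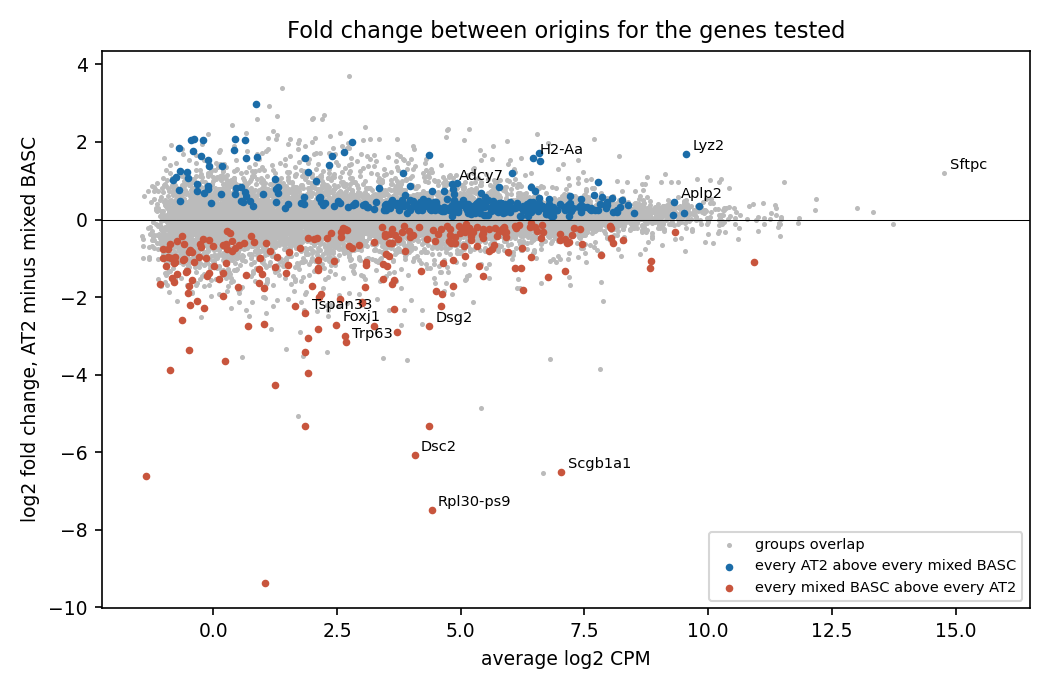
Log2 fold change of AT2 over mixed BASC tumoroids against the average log2 CPM of each of the 15470 genes tested. Blue points are the 322 genes with every AT2 value above every mixed BASC value, red points the 243 genes with the reverse, and grey points overlap; no gene passed an adjusted p of 0.05 in edgeR. The lowest point is Gm20481, which had 0 counts in the AT2 tumoroids, so its fitted fold depends on the prior count.

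Dsg2, Krt7, Gsta3, Hif3a, Oit1 and Napsa overlap an annotated gene on the opposite strand, and Sox2, Pkp1, Mtus2 and Trp63 one on the same strand, so part of their counts may belong to the partner. The 7 genes that DESeq2 called were Rpl30-ps9, Dsc2, Tspan33, Gm20481, Kcnj10, Mtus2 and Oit1, named here after their values were seen. Tspan33, a tetraspanin, was at 1.21, 1.16 and 0.969 CPM in AT2 and 7.11, 5.16 and 5.52 CPM in mixed BASC tumoroids (log2 fold change -2.41, SE 0.39, edgeR unadjusted p = 0.000623). Kcnj10, an inwardly rectifying potassium channel, was at 0.725, 0.338 and 0.452 CPM against 2.31, 3.60 and 4.05 CPM. Both genes were at low levels, and for Tspan33 the samples of an origin differed little from one another. The counts of Rpl30-ps9 and Gm20481 are uncertain. Gm20481 had 0 counts in every AT2 tumoroid and 2.14, 3.48 and 6.04 CPM in the mixed BASC tumoroids, a mean at least 24.1-fold higher than a floor of 3 counts per library. It overlaps Hspa1a, a heat shock gene on the opposite strand, over 2225 bases, and strand was not stated in the counting, so reads of the pair cannot be told apart. Hspa1a was at 778, 445 and 104 CPM in AT2 and 73.0, 668 and 464 CPM in mixed BASC tumoroids.

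Rpl30-ps9 is a processed pseudogene of the ribosomal protein gene Rpl30 on the - strand of chromosome X (GRCm38, chrX:105278637-105278981). It was at 0, 0.0967 and 0.646 CPM in AT2 and at 30.1, 60.6 and 35.9 CPM in mixed BASC tumoroids, which was the widest gap of any gene (5.35 on the log2 CPM scale). Its 345 bases match the Rpl30 transcript at all but 2 positions, 99.42% identity. Counted from 1 at the 5′ end of Rpl30-ps9, with the Rpl30 base first, these are G93A and G339A. The stretches around both positions are shown because reads that cover neither cannot be assigned to one locus, and the capital marks the base that differs. The 1st stretch of the pseudogene is chrX:105278875-105278904 and the 2nd chrX:105278637-105278666 in GRCm38, both on the - strand, and the sequences are those of the GENCODE vM21 transcripts.
Rpl30-ps9, 1st stretch: cgtgctgggctacaaAcagactctgaagat
Rpl30, 1st stretch: cgtgctgggctacaaGcagactctgaagat
Rpl30-ps9, 2nd stretch: agcatgccagaacagactggtgaAaagtaa
Rpl30, 2nd stretch: agcatgccagaacagactggtgaGaagtaa
Rpl30 itself was at 193, 259 and 295 CPM in AT2 and 169, 224 and 228 CPM in mixed BASC tumoroids, with overlapping groups (log2 fold change 0.27, SE 0.24). A like pair marked a single sample: Eno1b, whose transcript is 99.48% identical to that of the glycolytic enzyme Eno1 over the aligned 1736 bases, was at 600 CPM in mixed BASC tumoroid 3 and from 0.741 to 3.43 CPM in the other samples. Tpm3-rs7, 99.1% identical to the tropomyosin Tpm3, was at 2.03 CPM in that sample and from 55.3 to 240 CPM in the others. RSEM splits reads among such copies, so the level of each copy is uncertain.

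MHC class II proteins present peptides to T cells, and AT2 cells are among the epithelial cells that express them. All 7 class II genes tested were higher in AT2, as were 56.4% of all genes, with a median log2 fold change of 1.06. Separated groups were found for 2 of the 7, H2-Aa and H2-Ab1, against 2.08% of all genes. Per epithelial count these 2 overlapped, while H2-DMa and H2-DMb1 were separated. H2-Aa was at 98.8, 207 and 91.5 CPM in AT2 and 81.6, 5.53 and 44.9 CPM in mixed BASC tumoroids (log2 fold change 1.59, SE 0.87, edgeR unadjusted p = 0.115). H2-Ab1 was at 123, 197 and 111 CPM against 100, 10.5 and 41.8 CPM. Cd74, the invariant chain, was at 1153, 1762 and 652 CPM against 1043, 106 and 565 CPM and overlapped. Each of the 7 was highest in AT2 tumoroid 2 and lowest in mixed BASC tumoroid 2, the sample with the most Scgb1a1. Interferon-stimulated genes, which respond to antiviral cytokines, peaked in a tumoroid of either origin. Of 28 tested, 23 were higher in mixed BASC, with a median of -0.45, but 12 were highest in AT2 tumoroid 3 and 16 in mixed BASC tumoroid 3, while 20 were lowest in AT2 tumoroid 1. Mx1, an antiviral GTPase, was the 1 member with separated groups, at 6.47, 3.43 and 6.66 CPM in AT2 and 14.7, 9.89 and 23.1 CPM in mixed BASC tumoroids. Over all genes tested, 1.57% were separated in this direction. Per epithelial count 0 of the 28 had separated groups and 27 were higher in AT2. Their median log2 fold change on that scale was 1.12, where that of all genes was 0.88.

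Stromal content was spread widely among the AT2 tumoroids, which rested on 1 sample. The summed level of 28 fibroblast genes was 3482, 2135 and 19507 CPM in the AT2 tumoroids, a 9.14-fold range, and 6802, 8684 and 3088 CPM in the mixed BASC tumoroids, a 2.81-fold range. The difference of the mean log2 sums between origins was -0.11, against a pooled SD of 1.31. Without AT2 tumoroid 3, the AT2 range was 1.63-fold and the difference was -1.06. Without mixed BASC tumoroid 3, the mixed BASC range was 1.28-fold. A range over fewer samples tends to be narrower, so the order of the ranges depends on which sample is left out. Leaving out other samples gave differences from -0.55 to 0.54. AT2 tumoroid 3 held the highest sum and AT2 tumoroid 2 the lowest, so the mixed BASC tumoroids all lay between them. Col1a1, the fibrillar collagen chain whose locus also carries the transgene, was at 408, 297 and 4537 CPM in AT2 and 926, 1638 and 443 CPM in mixed BASC tumoroids. Its log2 fold change of 0.80 (SE 1.10) turned to -1.51 without AT2 tumoroid 3. Col3a1, another fibrillar collagen, was at 133, 69.6 and 2130 CPM against 342, 598 and 103 CPM. Pdgfra, a mesenchymal growth factor receptor, was at 46.3, 17.5 and 623 CPM against 143, 322 and 28.0 CPM. The lung fibroblast factor Tcf21 was at 0 in all 6 samples. Of 26 fibroblast genes tested, 1 had separated groups, where 1.57% of all genes tested were separated in this direction. It was the microfibril gene Mfap5, higher in mixed BASC and at most 3.88 CPM. Fn1, fibronectin, was at 119, 210 and 3387 CPM in AT2 and 673, 2285 and 486 CPM in mixed BASC tumoroids.

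Other non-epithelial lists were lower. The 16 smooth muscle and pericyte genes summed to 149, 56.6 and 565 CPM in AT2, a 9.98-fold range, and to 250, 191 and 131 CPM in mixed BASC tumoroids. Endothelial genes summed to 211, 124 and 315 CPM against 144, 154 and 117 CPM. These sums came mainly from Esam, Eng and Flt1, which cells other than endothelium also express. The defining endothelial genes Cdh5 and Emcn were at most 0.174 CPM, and Cldn5 and Sox17 were at 0. Immune genes summed to 76.5, 48.7 and 101 CPM against 159, 66.5 and 151 CPM, of which Cd14, a receptor of bacterial lipopolysaccharide, made up the largest part. Ptprc, which encodes CD45, was at most 2.27 CPM. No neuroendocrine gene was high enough to be tested.

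General epithelial genes, such as keratins and claudins, were lowest in the tumoroid with the most fibroblast RNA. Their sum was 8534, 7514 and 1702 CPM in AT2 and 5763, 5943 and 8815 CPM in mixed BASC tumoroids. Epcam, the epithelial adhesion molecule used in the sort, was at 177, 334 and 35.1 CPM against 108, 167 and 243 CPM. Ly6a, which encodes Sca1, was at 53.1, 21.8 and 157 CPM against 67.4, 303 and 98.0 CPM, with overlapping groups (log2 fold change -1.02, SE 0.84). The overlap rested on AT2 tumoroid 3, without which both AT2 values lay below every mixed BASC value and the log2 fold change was -2.06. Without mixed BASC tumoroid 2 it was -0.10. Fibroblasts can also express Ly6a, and their part in its level was not tested. Ngfr was at most 0.323 CPM in any sample.

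**Figure D4:**
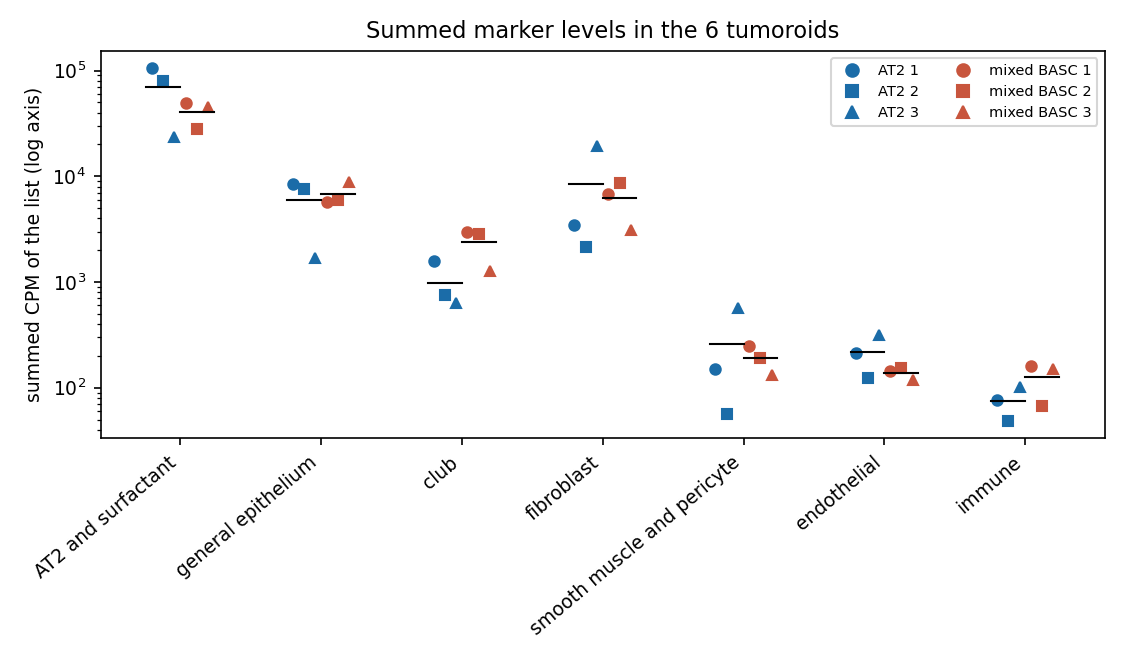
Summed CPM, on a log axis, of 7 marker lists in the 3 AT2 (blue) and 3 mixed BASC (red) tumoroids, one point per sample, with a bar at the arithmetic mean of each group. In AT2 tumoroid 3 (blue triangle) the fibroblast sum reaches 19507 CPM and the general epithelial sum is 1702 CPM.

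Levels were also set against the epithelial part of each library, a scale chosen after these sums were seen, by dividing each gene's counts by the summed counts of the 20 general epithelial genes. Sftpc was then at 76155, 55585 and 60081 counts per 10000 epithelial counts in AT2 and at 37175, 16207 and 22239 in mixed BASC tumoroids. On this scale the groups no longer overlapped, and AT2 tumoroid 3 lay between the other AT2 tumoroids. Sftpb was at 18552, 18271 and 21642 per 10000 against 14791, 15002 and 12938, and Sftpd at 1983, 1847 and 4113 against 1699, 1162 and 1291. Of the 23 AT2 genes tested, 4 had separated groups in favour of AT2 (Sftpc, Sftpb, Sftpd and the transcription factor Etv5), and Lyz2 was no longer among them. The genes of the divisor, Krt7 among them, sum to 10000 in every sample, so a higher share of some comes with a lower share of others. Krt7 was at 469, 458 and 354 per 10000 in AT2 and 847, 1245 and 765 in mixed BASC tumoroids. Cldn3, a claudin, was at 979, 977 and 959 against 732, 471 and 796. Scgb1a1, Dsc2, Dsg2, Krt4 and Tspan33 stayed separated in favour of mixed BASC on this scale, whereas Foxj1, Trp63, Pkp1 and Ehf overlapped. The median log2 fold change of all genes moved to 0.88 on this scale, so that a fold change is to be read against that shift, and edgeR called 0 genes with 101 at an unadjusted p below 0.05. For Sftpc the log2 fold change was 1.34 (SE 0.70, edgeR unadjusted p = 0.0775, adjusted p = 0.642). Over all genes, 272 (1.76%) had every AT2 value above every mixed BASC value on this scale and 77 (0.498%) had the reverse.

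**Figure D5:**
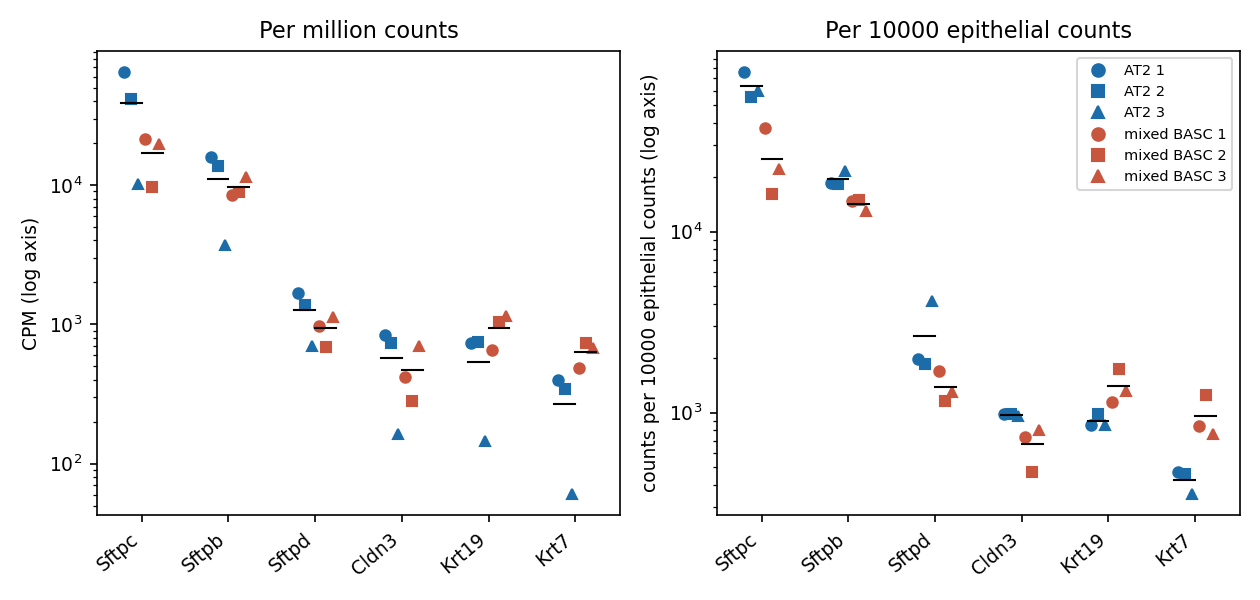
Levels of 6 genes in the 3 AT2 (blue) and 3 mixed BASC (red) tumoroids as CPM (left) and as counts per 10000 counts of 20 general epithelial genes (right), both on log axes, with a bar at the arithmetic mean of each group. AT2 tumoroid 3 (blue triangle) is the lowest AT2 tumoroid on the left for all 6 genes but joins the other AT2 tumoroids for Sftpc on the right, where the AT2 values are 55585 to 76155 and the mixed BASC values 16207 to 37175.

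Genes that varied most within an origin separated single samples. Among the 100 genes with the widest range in the AT2 group, 86 were highest in tumoroid 3 and 72 lowest in tumoroid 2. Car4, a carbonic anhydrase, was at 12.8, 337 and 0.905 CPM there, and Ccl5, a T cell chemokine, at 0.628, 0.532 and 178 CPM. In the mixed BASC group 59 of the 100 were highest in tumoroid 2 and 60 lowest in tumoroid 3. AT1 genes, which mark the flat cells of gas exchange, also varied by sample: Ager was at 2279, 2716 and 544 CPM in AT2 and 1554, 2044 and 3164 CPM in mixed BASC tumoroids. Of 18 AT1 genes tested, 7 were higher in AT2, with a median log2 fold change of -0.09, and none had separated groups. Glycolysis and hypoxia genes gave 17 of 22 higher in mixed BASC, with a median of -0.15, and Egln3, a target of hypoxia-inducible factors, was at 31.8, 150 and 128 CPM against 37.2, 245 and 277 CPM. The lowest Egln3 value of each origin came from tumoroid 1.

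The transitional alveolar state is a keratin-rich form that AT2 cells pass through as they become AT1 cells. Of its 20 genes tested, 16 were higher in mixed BASC, with a median log2 fold change of -0.22, and 14 were lowest in AT2 tumoroid 3. Krt7 was the 1 member with separated groups, where 1.57% of all genes tested were separated in this direction. NRF2 drives genes of glutathione synthesis and antioxidant defence. Of 18 such genes, 13 were higher in mixed BASC, with a median of -0.21, and 13 were lowest in AT2 tumoroid 3. The 2 with separated groups were Gclc and Cbr3, where 1.57% of all genes tested were separated in this direction, and neither was separated per epithelial count. Gclc, the catalytic subunit of the enzyme that begins glutathione synthesis, was at 299, 259 and 196 CPM in AT2 and 401, 303 and 393 CPM in mixed BASC tumoroids (log2 fold change -0.54, SE 0.24). Slc7a11, the cystine transporter, was at 22.5, 8.80 and 19.97 CPM against 93.5, 17.0 and 41.3 CPM and overlapped.

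Genes of TGF-beta signalling and of epithelial-mesenchymal transition were split by sample. Of 24 tested, 13 were higher in AT2 and 11 in mixed BASC, none had separated groups, and 14 were highest in AT2 tumoroid 3. Of 8 goblet and mucin genes tested, 7 were higher in mixed BASC in CPM, with a median log2 fold change of -0.47, and none had separated groups. Per epithelial count 5 of the 8 were higher in AT2 and 1 was separated in favour of mixed BASC. The airway mucin Muc5b was at 18.4, 0.145 and 0 CPM in AT2 and 29.5, 14.8 and 19.3 CPM in mixed BASC tumoroids. AT2 tumoroid 1 lay within the mixed BASC range for this gene in CPM, and just below it per epithelial count. Ehf, an epithelial ETS factor, was at 80.1, 29.9 and 21.7 CPM against 127, 104 and 80.8 CPM and was separated by a narrow margin. Msln, a mesothelial gene that epithelial tumors can also express, was at 39.3, 108 and 70.5 CPM against 92.3, 179.7 and 184 CPM, and the other mesothelial gene tested, Upk1b, was at most 2.42 CPM.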

How the data were processed

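Per the submitters' processing notes, which name Trimmomatic 0.39, STAR 2.6.1d, RSEM 1.3.2 and build GRCm38, the authors deposited an RSEM expected count and a TPM value for each of 46603 genes per sample, without normalization between samples. Here expected counts were rounded and 46091 genes were matched to GENCODE vM21. The quasi-likelihood test of edgeR 4.0.16 (R 4.3.3), after its filterByExpr and TMM steps, compared the 3 AT2 with the 3 mixed BASC tumoroids, with Benjamini-Hochberg adjustment over 15470 genes and a threshold of 0.05. All gene p-values come from this fit unless DESeq2 1.42.0 is named. An exact permutation test of 3 against 3 cannot go below 0.1, so none was run. Groups were called separated when all 3 values of one lay above the other's. Intervals used the fit's own degrees of freedom. Log2 CPM used a prior count of 2. Counts limit precision by counting error only; totals stand with the results. Sequence identity came from Biopython 1.88 local alignments.

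Named genes were Sftpc, Scgb1a1, Ly6a and Ngfr, the 5 widest gaps in each direction and the 5 widest ranges in each group at an average log2 CPM of at least 3, the 2 largest fold changes of each list, the 2 highest members of non-epithelial lists and the 12 highest TPM. Others were named for a count or as markers, after their values were seen, and not all that the rule selects were printed. Members and lists were chosen with earlier results of these data known. Scripts were tested on simulated data.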

Additional observations from a re-analysis of the deposited data

How the results depend on the processing

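edgeR called 0 genes under upper-quartile factors, DESeq2 size factors, no filter and a minimum of 10 counts in every sample. It also called 0 with samples of a shared title number summed, all 8 tumoroids in 1 fit, the fibroblast covariate and per epithelial RNA. Without each replicate in turn it again called 0. The limma voom fit with the shared title number as a random block called 0 as well. The DESeq2 Wald test called 7. Unadjusted p below 0.05 went from 144 to 972 genes without AT2 tumoroid 3, with a smallest adjusted p of 0.252. The count of genes within 2-fold, 6447 in the main setting, ranged from 4269 to 6234 without each replicate (lowest without mixed BASC tumoroid 2) and was 1 per epithelial RNA, where the biological coefficient of variation was 0.828 against 0.539. Separated genes numbered 565 in all, 529 to 670 under the other normalizations and 349 per epithelial RNA. Of 31 genes followed through the alternatives, reversals were limited to Ly6a, at 0.45 per epithelial RNA, and to Col1a1, which ranged from -1.51 to 1.36 without each replicate and was -0.96 without AT2 tumoroid 3 and mixed BASC tumoroid 2. The log2 difference of fibroblast sums, -0.11, ranged from -1.06 (without AT2 tumoroid 3) to 0.54 (without AT2 tumoroid 2), within the pooled SD of 1.31. The epithelial scale, the omission of 2 samples at once and the omissions for fibroblast sums were chosen after seeing the data. The causes were not tested. No paired analysis was possible because the replicate numbers only name samples, and the shared title numbers lie within an origin. The estimated correlation of samples with a shared title number was -0.53. With 3 samples a group and the spread given, a miss of the threshold does not show that levels are alike.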

Other observations

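Y-linked genes differed within the pair of AT2 tumoroids that share a title number. Uty was at 14.3, 0 and 4.85 CPM in AT2 tumoroids 1 to 3 and at 15.6, 11.9 and 22.6 CPM in the mixed BASC tumoroids. Kdm5d was at 14.0, 0.0483 and 3.88 CPM against 15.1, 11.8 and 22.2 CPM, and Ddx3y at 44.6, 0.290 and 11.0 CPM against 38.9, 21.5 and 39.5 CPM. Eif2s3y, on the same chromosome, was present in AT2 tumoroid 2 at 65.0 CPM, the highest of the 6. Xist was between 3.40 and 17.2 CPM in all samples.

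As a side value on the same platform, scaled over all 18 samples, the single bronchiolar BASC tumoroid had an AT2 gene sum of 10831 CPM, below the 22759 to 105630 CPM of the AT2 tumoroids and the 27363 to 49488 CPM of the mixed BASC tumoroids. Its fibroblast sum, 4489 CPM, lay within the range of both groups. With 1 sample no test was made.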
